A study of Mus musculus with 48 samples.

Results

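Gnrh1 encodes the precursor of gonadotropin-releasing hormone (GnRH), and it is followed here as 1 gene of the 23284 in the count table, taken by its symbol, through all 48 libraries. GnRH is a decapeptide cut from a larger precursor in a small, scattered set of neurons, most of which lie in and around the preoptic area. Their axons release it in pulses into the portal vessels, and it drives the pituitary to secrete luteinising hormone and follicle-stimulating hormone. Steroid hormones feed back on these cells largely through other neurons, and kisspeptin acts on them directly through its receptor.

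RNA came from preoptic area punches of mice, female by the series design, and the adults were in diestrus. A protocol line of the labels mentions tissue from both sexes, and the design is followed here. The labels give the genotype as GnRH CRE x Floxed L10a-GFP: Cre expressed in GnRH neurons switches on a GFP-tagged form of the ribosomal protein L10a (GFP is green fluorescent protein), so that ribosomes of these cells can be pulled down. Each mouse group had a GnRH-enriched immunoprecipitate (IP) and a GnRH-depleted supernatant. The mice were young or adult, and their prenatal treatment was either vehicle or dihydrotestosterone (DHT), an androgen that aromatase does not turn into oestradiol. In each fraction there were 6 young vehicle, 6 young DHT, 5 adult vehicle and 6 adult DHT libraries. A further young library per fraction came from the Floxed L10a-GFP genotype without Cre, and this pair of libraries entered no test. Replicates are labelled as biological, with no word on how many animals went into each, so the p-values rest on the spread among these libraries, whatever its source. The study's purpose was to find transcripts enriched in GnRH neurons and to compare them after prenatal androgen exposure, before puberty and in adulthood.

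Gnrh1 lies at chr14:67745181-67749439 on the plus strand of GRCm38, the assembly that mm10 names. GENCODE vM21 gives it 3 protein-coding transcripts whose exons together cover 642 bp. The longest model by exon number has 4 exons, at 67745268 to 67745325, 67746339 to 67746480, 67747803 to 67747898 and 67749250 to 67749439. Kctd9 ends 2871 bp upstream on the same strand, and Dock5 ends 2696 bp downstream on the opposite strand. RefSeq places a predicted noncoding gene across the last exon of Gnrh1, and the library kit does not mark strand, so reads shared there cannot be assigned to one or the other. The sources used here do not name the annotation behind the counts.

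Library totals ran from 28136000 to 55479451 counts, so Gnrh1 rested on 22714 to 613489 reads in an IP library with Cre and on 711 to 2642 reads in a supernatant. Counting error was therefore small beside the spread between replicates. In the lowest IP library the 95% exact Poisson interval was 655 to 672 CPM (the number of reads relative to the library total), and in the lowest supernatant it was 18.6 to 21.2 CPM. These intervals cover counting error only. As a check on the labelled tissue, of 8 anterior pituitary genes Fshb and Gnrhr were at 0 in every IP library with Cre and 1 reached a mean of 5 CPM, and the 8 summed to between 2.29 and 23.1 CPM in an IP library. None of the 12 endothelial and mural markers reached a mean of 5 CPM in the IP. Markers of astrocytes and oligodendrocytes were present in both fractions, with 12 of 12 of each list above that mean in the IP.

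Gnrh1 was the most strongly enriched gene of the IP. In young vehicle IP the lowest, median and highest values were 1751, 3214 and 6817 CPM, and in young DHT IP they were 2816, 3195 and 3942 CPM. The 5 adult vehicle IP libraries held 6065, 1951, 5919, 10542 and 16067 CPM, and the 6 adult DHT IP libraries ran from 664 through a median of 3940 to 13176 CPM. The adult groups therefore held both the lowest and the highest IP values with Cre, on either side of the whole young DHT range.

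In the supernatant the gene was far lower in every condition. The lowest, median and highest values were 19.9, 26.7 and 38.9 CPM in young vehicle, 20.5, 29.5 and 40.2 CPM in young DHT, and 34.4, 39.7 and 50.4 CPM in adult DHT mice. The 5 adult vehicle supernatants held 48.8, 29.7, 30.1, 46.04 and 43.0 CPM. No supernatant overlapped an IP of its condition, and the lowest IP library with Cre stood above the highest supernatant. In the pair of libraries without Cre the gene reached 61.6 CPM in IP against 38.2 CPM in supernatant, a log2 ratio of 0.69 with no replicate behind it, and this IP lay below every IP with Cre.

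**Figure D1:**
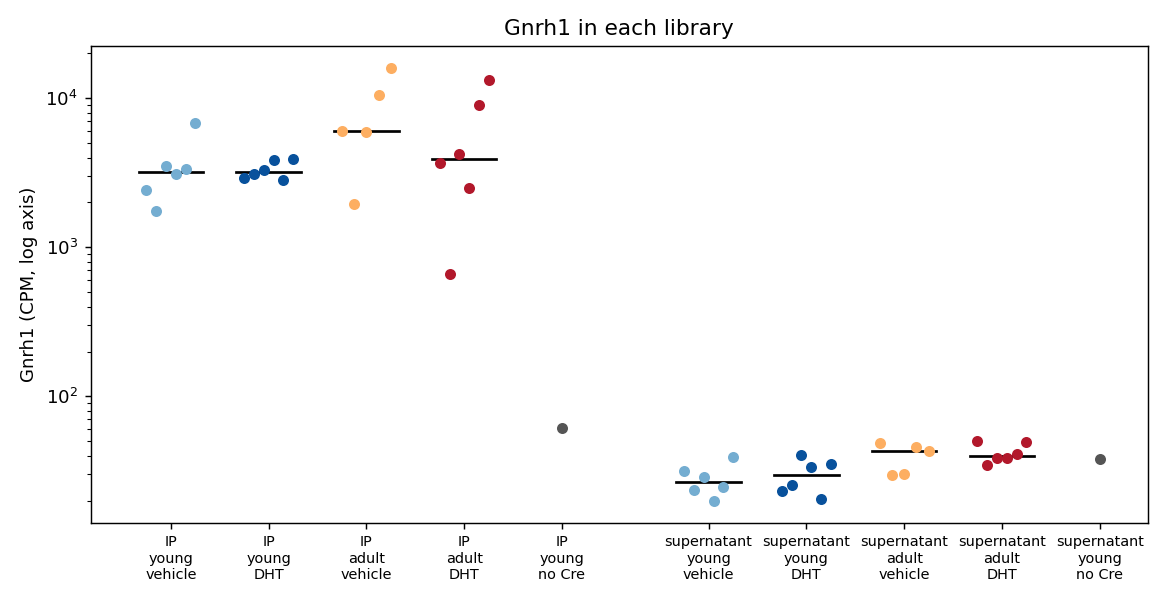
Gnrh1 in CPM on a log axis for each library (points) by fraction, age and prenatal treatment, with a line at the median of each group of 5 or 6. The 23 IP libraries with Cre lie between 664 and 16067 CPM, above all supernatants and above the IP without Cre at 61.6 CPM, and the adult IP groups are the most spread.

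Over the mean of the 4 conditions the log2 difference between IP and supernatant was 7.19 ± 0.26 (SE; edgeR quasi-likelihood test, Benjamini-Hochberg adjusted p = 4.14e-26), the largest of the 16660 genes tested. Of all genes tested, 46.1% were called in this contrast, 24.4% higher and 21.7% lower in IP, so a call by itself was common, while no gene had a larger difference. Within conditions the log2 difference was 7.01 ± 0.50 in vehicle and 6.85 ± 0.49 in DHT-exposed young mice (21.9% and 20.0% of all genes called), and 7.80 ± 0.56 in vehicle and 7.11 ± 0.50 in DHT-exposed adults (24.0% and 21.5%), and Gnrh1 was called in each. In adult DHT mice 1 gene, Slc4a1, had a larger log2 difference (7.22 ± 2.30, at a mean log2 CPM of -2.25), and in the other conditions none did; it is named after its values were seen. An exact two-sided permutation test of the log2 CPM values gave p = 0.0021645 in 3 conditions and p = 0.00793651 in adult vehicle mice, which are the smallest values these group sizes allow (adjusted p = 0.00866 and 0.0238 over 12 comparisons).

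Set against the supernatant with the same label, the IP held a median of 129 times as much Gnrh1 in young vehicle mice (74.3 to 175), 118 times in young DHT (82.0 to 138), 197 times in adult vehicle (65.7 to 373) and 91.1 times in adult DHT mice (19.3 to 266). The lowest ratio belonged to adult DHT replicate 2, whose IP held 664 CPM while its supernatant, at 34.4 CPM, was the lowest of its group but close to the others. The ratios of the adult DHT group thus followed the IP, where Gnrh1 ranged 19.9-fold, more than the supernatant, where it ranged 1.46-fold. The labels do not state in words that an IP and a supernatant of the same number came from the same tissue.

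Compared per kilobase of exon, where genes can be set beside each other, Gnrh1 ranked first in 17 of 23 IP libraries and in the top 10 in 22. It ranked first in 10 of 11 adult IP libraries and was 12th in the remaining one, and in the 12 young libraries it ranked first in 7 and no lower than 2nd. In the supernatants its rank ran from 766 to 1953 with a median of 1184. Gnrh1 was thus at or near the head of the list in the IP and well down it in the supernatant.

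Ordered by geometric mean, the levels ran from adult vehicle IP (6529 CPM) through adult DHT IP (3806 CPM), young DHT IP (3287 CPM) and young vehicle IP (3187 CPM) to the supernatants of adult DHT (41.6 CPM), adult vehicle (38.7 CPM), young DHT (28.8 CPM) and young vehicle mice (27.3 CPM). Of the 7 pairs of neighbours in this order, only young vehicle IP and adult DHT supernatant differed beyond their spread (exact permutation p = 0.0021645, adjusted p = 0.0151515). The other neighbours had adjusted p-values of 0.318182 or more in the same exact test, and their order within a fraction is not resolved by these replicates.

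Prenatal DHT exposure gave no detectable difference in Gnrh1 in any fraction or age. The log2 difference of DHT over vehicle was -0.10 ± 0.47 in young IP, -0.58 ± 0.49 in adult IP (edgeR adjusted p = 0.821), 0.06 ± 0.17 in young supernatant and 0.10 ± 0.18 in adult supernatant. Leaving out 1 library moved the adult IP value between -1.03, without adult DHT replicate 6, and -0.17, without adult vehicle replicate 5, with none called. The DHT and vehicle libraries overlapped in all 4 comparisons. edgeR called 0.0% of genes in young IP, 0.00629% in adult IP, where Scube3 alone passed and is named after its values were seen, and 0.0% in each supernatant. The counts at an unadjusted p under 0.05 were 239 genes in young and 1318 in adult IP, and 747 in young and 338 in adult supernatant. DESeq2 called 2, 151, 1 and 0 genes in the same order. The standard errors were more than 2 times as large in the IP as in the supernatant, so the IP comparisons were the less precise ones. A difference that missed the threshold here does not show that the treatments were alike.

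Adult mice had more Gnrh1 than young mice in the supernatant of the DHT-exposed group. The 6 adult values ran from 34.4 to 50.4 CPM and the 6 young values from 20.5 to 40.2 CPM, so the groups overlapped, and their means were 42.0 ± 6.51 and 29.6 ± 7.77 CPM (SD). The log2 difference was 0.51 ± 0.17 (edgeR adjusted p = 0.0399, beside 19.9% of all genes called), and the exact permutation test gave p = 0.0195 (adjusted p = 0.0468 over 12 comparisons). This call was lost when any of 8 single libraries was left out: without adult DHT replicate 1, 3, 5 or 6, or without young DHT replicate 1, 2, 4 or 5, the edgeR adjusted p lay between 0.0508 and 0.102, and the log2 difference over all such refits between 0.41 and 0.62. The call was also lost without the last 10 sample numbers, which were all young libraries (log2 difference 0.51, edgeR adjusted p = 0.126).

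In vehicle mice the supernatant difference was of like size, at 0.47 ± 0.18, with 39.5 ± 9.06 CPM in adults and 27.9 ± 6.78 CPM in young mice (SD, n = 5 and 6), but it did not pass in the main test (edgeR adjusted p = 0.0647, beside 20.3% of genes called). DESeq2 gave an adjusted p of 0.0416 and limma-voom with sample weights gave 0.0234, and leaving out adult vehicle replicate 2 or 3 or young vehicle replicate 6 brought the edgeR adjusted p to between 0.0195 and 0.0488. The interaction of age and treatment in the supernatant was not called (0.0% of genes), so the 2 treatments were not shown to differ in their age difference. In this GnRH-depleted supernatant, more GnRH neurons in a punch, more Gnrh1 RNA per cell and more Gnrh1 left behind by the pull-down cannot be told apart. Markers of other cells also differed between the ages in these supernatants. The 12 oligodendrocyte markers summed to a median of 5760 CPM in young and 2681 CPM in adult vehicle mice, and to 5500 and 2881 CPM in DHT mice. The 12 markers of other neurons summed to 2021 and 2674 CPM in vehicle and to 2107 and 2612 CPM in DHT mice, and the astrocyte markers to 1577 and 1590 CPM and to 1645 and 1520 CPM. Their part in the Gnrh1 difference was not tested.

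In the IP, the adult means were also higher, at 8109 ± 5389 against 3489 ± 1756 CPM in vehicle mice (SD, n = 5 and 6) and 5536 ± 4658 against 3314 ± 472 CPM in DHT mice (SD, n = 6 each). The log2 differences of 1.23 ± 0.50 and 0.75 ± 0.48 did not pass (edgeR adjusted p = 0.178 and 0.414, beside 3.83% and 7.12% of genes called), and the age groups overlapped in both treatments. Leaving out 1 library moved the first between 0.83, without adult vehicle replicate 5, and 1.56, without young vehicle replicate 6. It moved the second between 0.30, without adult DHT replicate 6, and 0.98, without adult DHT replicate 2, and limma-voom gave 0.36. Glial markers differed between these libraries too: the summed level of the 12 oligodendrocyte markers ran from 3784 to 5874 CPM in young IP and from 1337 to 4366 CPM in adult IP. Nefl, a neurofilament gene, also differed, at 6122 to 31492 CPM in young IP and 649 to 1120 CPM in adult IP. The young IP without Cre held 29998 CPM of Nefl, and the supernatants held 660 to 908 CPM. The part of Nefl and of the glial markers in the Gnrh1 values was not tested.

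No interaction was called for Gnrh1. The enrichment over supernatant did not differ detectably between ages, in vehicle mice (1.04% of genes called) or in DHT mice (0.882%), nor between treatments in young (0.0%) or adult mice (0.114%), and the interaction of age and treatment in the IP was not called (0.0%). At an unadjusted p under 0.05, edgeR had 389 genes for fraction by treatment in young mice, 857 for age by treatment in the IP and 888 in the supernatant, and DESeq2 called 35, 50 and 0 genes in these comparisons.

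**Figure D2:**
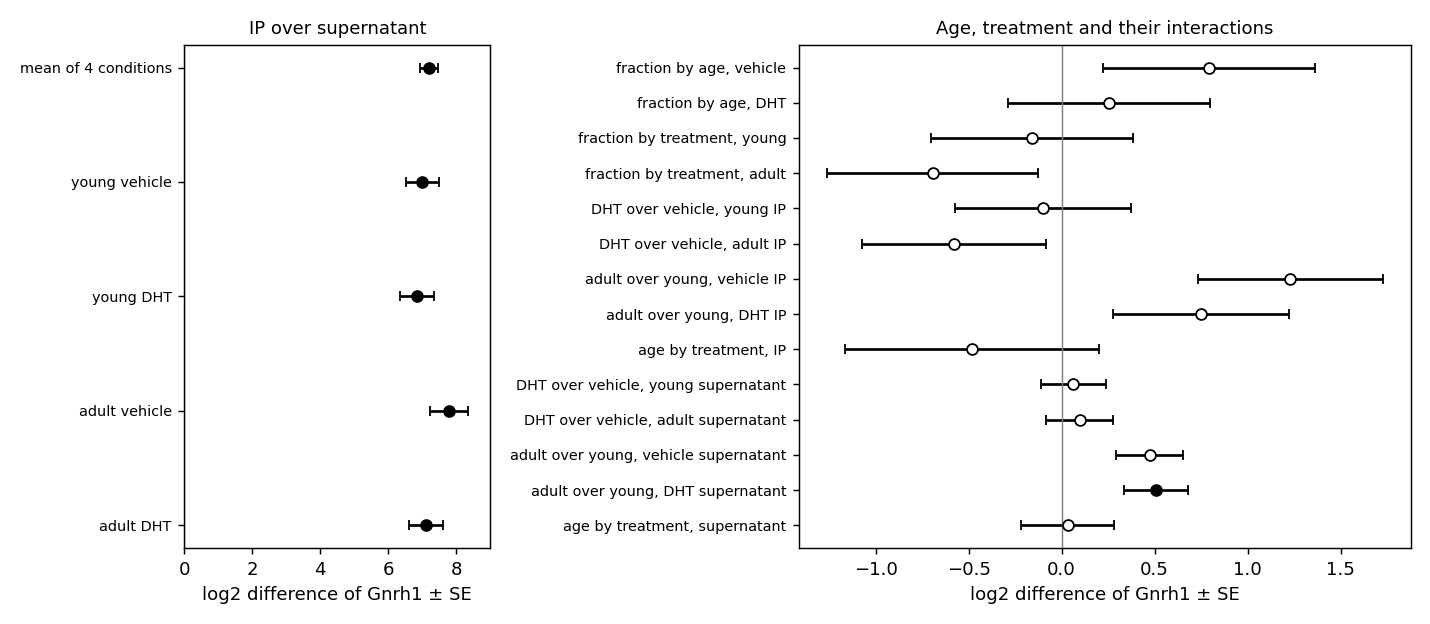
Log2 differences of Gnrh1 with SE for IP over supernatant (left) and for age, treatment and their interactions (right), from edgeR, with filled points where the adjusted p was below 0.05 and open points otherwise. On the right only adult over young in DHT supernatant, at 0.51, is filled, and error bars in the IP are wider than in the supernatant.

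The spread of Gnrh1 between replicates was measured in each group, and no comparison of it passed after adjustment. The coefficient of variation was 14.2% in young DHT IP, 50.3% in young vehicle IP, 66.5% in adult vehicle IP and 84.2% in the adult IP after DHT, and the highest library exceeded the lowest 1.40-fold, 3.89-fold, 8.23-fold and 19.9-fold in the same order. Single libraries carried much of this: 19.9 became 5.26 without adult DHT replicate 2, 8.23 became 2.71 without adult vehicle replicate 2 and 5.40 without replicate 5, and 3.89 became 2.01 without young vehicle replicate 6, whose group then had a coefficient of variation of 25.8%. In the 4 supernatant groups the coefficient of variation stayed between 15.5% and 26.2%. The mean absolute deviation of log2 CPM from the group median was 1.06 in adult DHT IP and 0.16 in young DHT IP, a difference with an exact permutation p of 0.0455 that did not pass after adjustment over the 4 comparisons made (adjusted p = 0.182). The adult and young vehicle groups, at 0.77 and 0.43, and the treatments within each age did not pass in that test either (exact permutation, adjusted p between 0.437 and 0.610).

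The SD of Gnrh1 around its group means over the 23 IP libraries was 1.00 on the log2 scale, against a median of 0.23 for the 76 genes with a mean of at least 1000 CPM, and none of those genes had a larger one. Over the 11334 genes with a mean of at least 5 CPM the median was 0.49, and 1671 genes, most of them far less abundant, varied more.

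The Gnrh1 level of an IP library moved with other properties of the library. Over the 23 IP libraries it rose with the summed CPM of the 84 cytosolic ribosomal protein genes (Pearson r = 0.82, Spearman rho = 0.86, each with permutation p = 1e-05, the smallest that 100000 resamples can give, and adjusted p = 6e-05 over 6 relations). Without the 2 libraries farthest from the median, r was 0.78. Within ages r was 0.82 in the 12 young and 0.95 in the 11 adult libraries (permutation p = 0.00147 and 2e-05). In the young libraries r was 0.52 without the 2 farthest, and Spearman rho was 0.66 (permutation p = 0.0216, adjusted p = 0.0624). The ribosomal sum ran from 11089 to 28306 CPM in young IP and from 7443 to 21193 CPM in adult IP. Young IP libraries with the last 10 sample numbers held 16219 to 28306 CPM of this sum, and the other young ones 11089 to 14840 CPM. Their Gnrh1 ran from 2816 to 6817 CPM and from 1751 to 3514 CPM in the same order. The relation was not recomputed without these late-numbered libraries.

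Gnrh1 fell as the summed CPM of astrocyte, oligodendrocyte, microglia and endothelial markers rose (r = -0.60, rho = -0.48, permutation p = 0.00183 and 0.0231, adjusted p = 0.00549 and 0.0347). In the adult libraries r was -0.72 (permutation p = 0.0116, adjusted p = 0.0348), and in the young libraries it was -0.04 (permutation p = 0.902), a difference that was not tested. Without the 2 farthest libraries the pooled r was -0.46. Oligodendrocyte markers were the largest part of this sum, with medians of 4553 CPM in young and 1761 CPM in adult vehicle IP. Astrocyte markers held 1210 and 1164 CPM, microglia markers 58.1 and 93.6 CPM, and endothelial and mural markers 31.7 and 8.09 CPM. Over both ages the median r with Gnrh1 was -0.48 for oligodendrocyte, -0.25 for astrocyte and -0.050 for microglia markers. Nefl, a neurofilament gene that is high in the IP of mice without Cre, ran from 6122 to 31492 CPM in young and from 649 to 1120 CPM in adult IP, so no pooled value is given. Within ages its r with Gnrh1 was -0.73 in the young libraries (permutation p = 0.0105, adjusted p = 0.0315) and -0.56 in the adult ones (permutation p = 0.0720, adjusted p = 0.135). Young IP libraries with the last 10 sample numbers held 6122 to 15560 CPM of Nefl, and the other young ones 13755 to 31492 CPM.

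Gnrh1 in an IP was related to Gnrh1 in the supernatant of the same label (r = 0.52, rho = 0.66, permutation p = 0.00979 and 0.00093, adjusted p = 0.0196 and 0.00279). Without the 2 farthest libraries r was 0.54. Within ages r was 0.56 and 0.53 in young and adult mice, and neither passed after adjustment (permutation p = 0.0472 and 0.0902, adjusted p = 0.0944 and 0.135). On deviations from group means over the 23 libraries r was 0.51 (permutation p = 0.00353, adjusted p = 0.0106). No relation was detected with the library total (r = -0.0047, rho = -0.048, permutation p = 0.983 and 0.826) or with the share of tested genes without a read (r = 0.26, rho = 0.36, permutation p = 0.235 and 0.0941). Within ages these were -0.31 and 0.16 for the total and -0.067 and 0.085 for the share, in young and adult libraries.

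**Figure D3:**
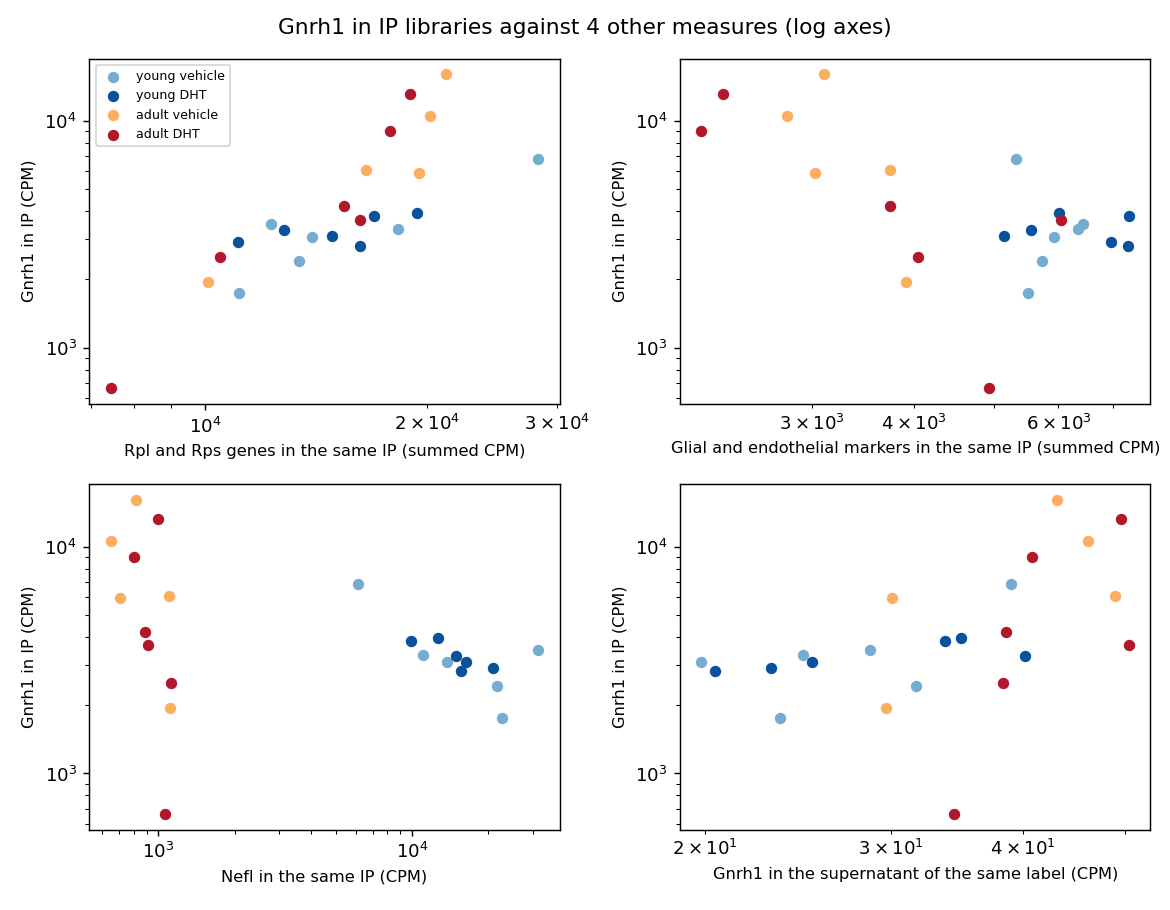
Gnrh1 in each IP library against the summed ribosomal protein genes, summed glial and endothelial markers and Nefl of the same library and against Gnrh1 in the supernatant of the same label, all in CPM on log axes and coloured by group. The rise with ribosomal protein genes is seen in both ages, the fall with glial markers in adults (r = -0.72) and not in young mice (r = -0.04), a difference that was not tested, and Nefl separates the ages.

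Genes that followed Gnrh1 were ranked over the 23 IP libraries by the smaller of 2 correlations of log2 CPM, one of the values as they stand and one of deviations from group means. The points share depth and composition within each library, so these values describe the libraries and carry no test. Among the 11333 other genes with a mean of at least 5 CPM, the median r was -0.06, 1106 genes (9.76%) exceeded 0.5 on both measures and 520 (4.59%) lay below -0.5 on both.

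Tstd1, which encodes a small protein with a rhodanese domain, came first, with r = 0.97 as it stands and 0.98 around group means, and 0.90 in young and 0.98 in adult libraries. Its lowest, median and highest IP values were 14.2, 23.5 and 48.2 CPM in young vehicle, 17.9, 21.7 and 23.5 CPM in young DHT, and 3.80, 34.3 and 87.0 CPM in adult DHT mice, with a range of 9.35 to 107 CPM in adult vehicle mice. It thus showed the narrow young DHT group and the wide adult groups of Gnrh1. Its supernatant mean was 0.439 CPM, its IP without Cre held 0.678 CPM (22 reads), and its log2 difference between IP and supernatant was 6.32 ± 0.29 (edgeR adjusted p = 2.35e-22).

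Gchfr, the feedback regulator of GTP cyclohydrolase I in tetrahydrobiopterin synthesis, followed with r = 0.93 and 0.94. It ran from 5.20 to 30.2 CPM in adult DHT and from 12.2 to 67.4 CPM in adult vehicle IP, against 13.6 to 21.7 CPM in young DHT IP, and its log2 enrichment was 2.61 ± 0.18 (edgeR adjusted p = 9.36e-17). Cxcl14, a chemokine, had r = 0.92 and 0.97 and a log2 enrichment of 1.62 ± 0.15. Acbd7, an acyl-CoA binding protein, had r = 0.91 and 0.97 and a log2 enrichment of 3.86 ± 0.23. In adult DHT IP they ran from 50.2 to 326 CPM and from 1.96 to 36.4 CPM.

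The other 6 of the 10 most alike were Meig1 (r = 0.92 and 0.92), Trp53i11 (0.91 and 0.91), Efcab10, an EF-hand protein (0.92 and 0.91), Sec61b, a subunit of the channel that carries new proteins into the endoplasmic reticulum (0.90 and 0.93), Spint2, an inhibitor of serine proteases (0.91 and 0.90), and Fam183b (0.91 and 0.89). All 10 were called higher in the IP than in the supernatant over the mean of the conditions, beside 24.4% of all genes. Their log2 differences ran from 0.60 for Trp53i11 to 6.32 for Tstd1. Enrichment and likeness were thus not the same order: Trp53i11, at 196 CPM in IP against 135 CPM in supernatant, followed Gnrh1 as closely as Acbd7, at 20.5 and 1.46 CPM. In the IP without Cre the log2 ratio to its supernatant was 1.41 for Acbd7, 0.75 for Tstd1, 0.57 for Meig1 and 0.34 for Spint2, and between -0.073 and 0.12 for the rest.

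None of the 10 was called between ages or treatments in the IP, where few genes were called at all. Of all genes, 3.83% and 7.12% were called for age in vehicle and DHT mice. For treatment the share was 0.0% in young and 0.00629% in adult mice. Tstd1 had log2 differences of 1.07 and 0.94 for adult over young in vehicle and DHT mice (edgeR adjusted p = 0.305 and 0.323). In the supernatants, over both ages together, r with Gnrh1 was 0.71 for Gchfr and 0.50 for Tstd1, and -0.14 for Cxcl14 and 0.0048 for Acbd7. Supernatant Gchfr was at most 3.73 CPM in young and at least 4.03 CPM in adult mice with Cre. Mean Gnrh1 was also higher in the adult supernatants, and the part of age in the r of 0.71 was not tested. Tstd1 held only 0.16 to 0.78 CPM in these libraries. The membership of the list also depended on the measure. By Spearman rho 3 of the 10 stayed among the 10 most alike, within young libraries 1 and within adult libraries 3, although the 10 genes kept a median r of 0.83 within young and 0.96 within adult libraries. Tstd1 was first by every ordering tried except that of the young libraries, where Gchfr was first.

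Among the 5 genes that ran most against Gnrh1 were Oxct1, which encodes the enzyme that lets cells use ketone bodies (r = -0.84 and -0.85), Vwa5b2 (-0.78 and -0.84), Akt2, a kinase of insulin signalling (-0.78 and -0.82), and Zfml (-0.81 and -0.76). Oxct1 ranged only from 193 to 448 CPM over the IP libraries. Zfml held 165 CPM in the IP without Cre against 36.8 CPM in its supernatant, a log2 ratio of 2.17, larger than its log2 difference of 0.96 ± 0.13 in mice with Cre.

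**Figure D4:**
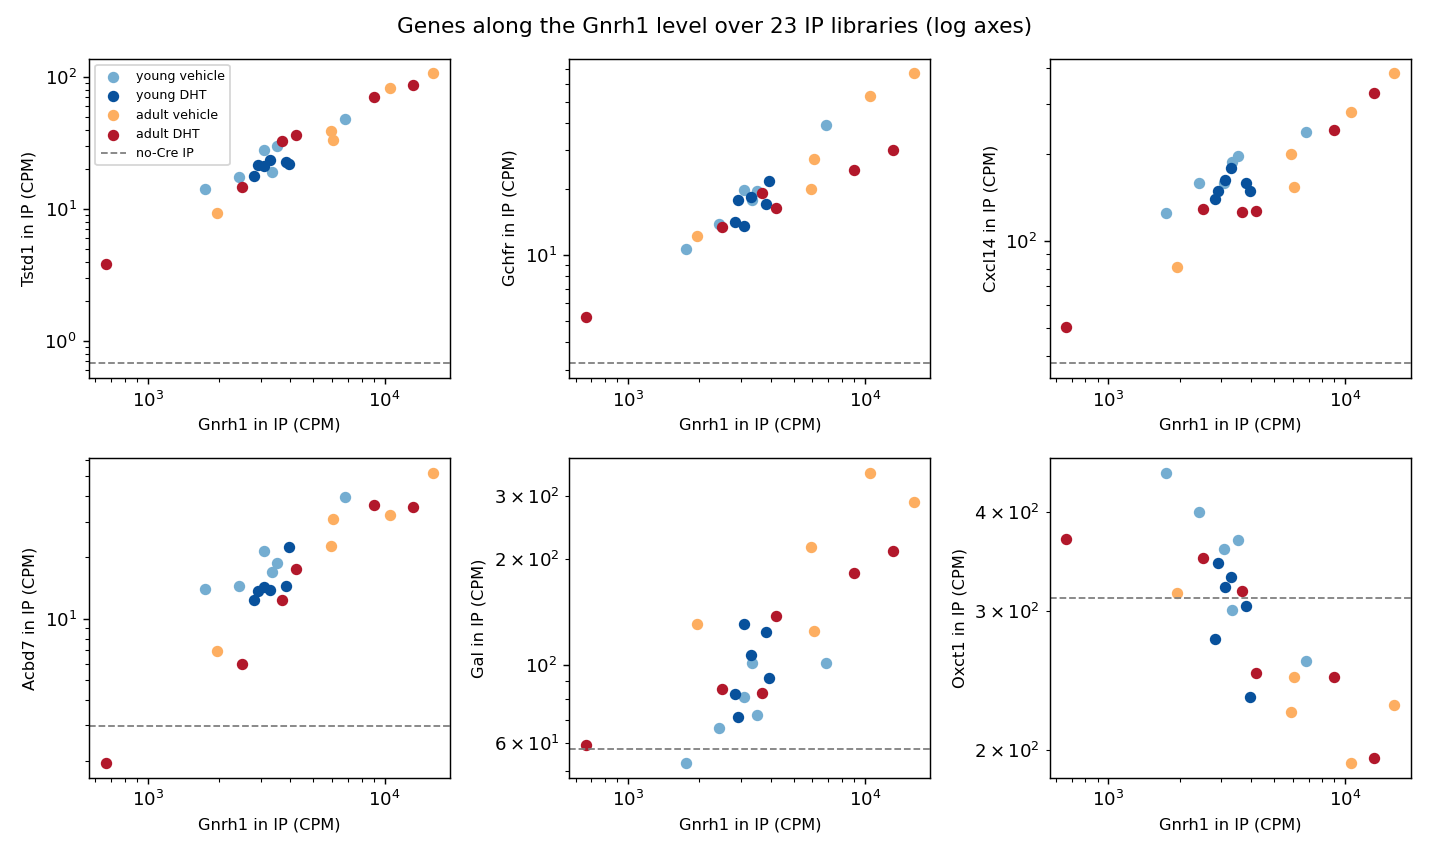
CPM of Tstd1, Gchfr, Cxcl14, Acbd7, Gal and Oxct1 against Gnrh1 over 23 IP libraries, log axes, coloured by group, with a dashed line at the IP without Cre. Tstd1 follows Gnrh1 over its whole range (r = 0.97), Gal more loosely (r = 0.81), and Oxct1 runs the other way within a narrow range (r = -0.84).

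Known genes of GnRH neurons followed Gnrh1 to differing degrees. Of the 11 tested members of a list of 12, Gnrh1 included, 8 were called higher and 1 lower in the IP, beside 24.4% and 21.7% of all genes, with a median log2 difference of 0.77 against -0.0032 over all genes tested. Six6, a homeodomain factor needed for GnRH neurons, was raised by 2.84 ± 0.24 on the log2 scale (edgeR adjusted p = 1.93e-13) and had r = 0.80 with Gnrh1. Isl1, a LIM homeodomain factor, was raised by 0.88 ± 0.091 (r = 0.76), Gal, the neuropeptide galanin, by 0.68 ± 0.13 (r = 0.81), and Ecel1, an endopeptidase-like protein, by 0.48 ± 0.088 (r = 0.60). Mean Gal in IP and supernatant was 79.1 and 61.3 CPM in young vehicle and 101 and 77.2 CPM in young DHT mice. In adults it was 222 and 107 CPM after vehicle and 126 and 79.9 CPM after DHT. The pair without Cre held 57.8 and 45.5 CPM of Gal. Kiss1r, the kisspeptin receptor, was raised by 1.15 ± 0.14, with 23.1 CPM in IP and 10.8 CPM in supernatant. In the pair without Cre it held 18.1 and 10.1 CPM, a log2 ratio of 0.84. It had r = 0.62 with Gnrh1 in adult and -0.045 in young libraries, a difference that was not tested.

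Chd7, a chromatin remodeller, was raised by 1.63 ± 0.17 but did not follow Gnrh1 (r = -0.15), and the IP without Cre held 109 CPM against 13.2 CPM in its supernatant, a log2 ratio of 3.05. Six3 was the member called lower (-0.29 ± 0.075). The 9 other members with a mean of at least 5 CPM had a median r of 0.53, of 0.19 in young and 0.62 in adult libraries, against -0.055 and -0.064 for all genes.

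Of 17 tested genes whose products mature or break down the peptide, 5 were called higher and 3 lower in the IP, beside 24.4% and 21.7% of all genes, so as a count this was near the background. Qpct, the glutaminyl cyclase that forms the pyroglutamate end of GnRH, was higher by 0.77 ± 0.10 on the log2 scale (edgeR adjusted p = 1.26e-08), with 44.0 against 26.7 CPM and r = 0.57. Scg5, a chaperone of a prohormone convertase, was higher by 0.80 ± 0.093 (r = 0.63), Scg3 by 0.52 ± 0.081 and Pcsk1n by 0.40 ± 0.10. Pcsk1, a convertase that cuts prohormones, was higher by 0.45 ± 0.17 (edgeR adjusted p = 0.0256), a call lost under limma-voom (0.0869) and without the last 10 sample numbers (0.229). Pcsk2 (-0.17 ± 0.089), the carboxypeptidase Cpe (0.048 ± 0.073), the amidating enzyme Pam (-0.34 ± 0.21) and the peptidase Prep (-0.047 ± 0.11) did not pass in the main test. Pcsk2 was called lower under limma-voom (-0.25, adjusted p = 0.0145) and under edgeR with a replicate block (-0.21, adjusted p = 0.0226). The peptidases Ace and Thop1 and the granin Chga were lower in the IP, with log2 differences of -1.18 ± 0.24, -0.18 ± 0.075 and -0.35 ± 0.092. The list as a whole did not follow Gnrh1. Its 15 members with a mean of at least 5 CPM had a median r of -0.085, of 0.23 in young and -0.50 in adult libraries. Of these, 2 (13.3%) exceeded r = 0.5 on both measures, against 9.76% of all genes.

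Among 22 tested factors described at the Gnrh1 promoter or enhancer, 5 were called higher and 12 lower in the IP, beside 24.4% and 21.7% of all genes, with a median log2 difference of -0.28. The count called higher was near the background. Beside Six6 and Isl1, the POU factor Pou2f1 was higher by 1.16 ± 0.19, and its log2 ratio in the pair without Cre was 1.78. Pou3f1, Nkx2-1 and Pou3f2 were lower, at -1.36 ± 0.11, -0.76 ± 0.12 and -0.97 ± 0.15. Of the 19 members with a mean of at least 5 CPM, 3 exceeded r = 0.5 on both measures (15.8%, against 9.76% of all genes). Those 3 were Isl1, Six6 and Cebpb, the last with r = 0.50 and 0.69 and a log2 difference of -0.26 ± 0.087, and Cebpb is named outside the rule for named genes, after its values were seen.

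Of 14 ligands that act on GnRH neurons, 3 were called higher and 1 lower in the IP, beside 24.4% and 21.7% of all genes. Nts, neurotensin, was higher by 0.84 ± 0.097 and Gal as given above. Pomc was higher by 0.51 ± 0.21 (edgeR adjusted p = 0.0467), a call that RLE scaling and limma-voom did not make. Nos1, the neuronal nitric oxide synthase, was lower, at -0.84 ± 0.18. Kiss1, the kisspeptin gene, stood at 13.5 CPM in IP and 11.9 CPM in supernatant (0.28 ± 0.21, adjusted p = 0.290).

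Of 24 tested receptors for these ligands and for hormones, 3 were called higher and 5 lower, beside 24.4% and 21.7% of all genes. Besides Kiss1r, Npffr1, the receptor of the RFamide-related peptides, was higher by 0.77 ± 0.19 and the insulin receptor gene Insr by 0.53 ± 0.20. Esr1, oestrogen receptor alpha, was among those lower (-0.81 ± 0.27). Gnrhr, the GnRH receptor, had no read in the IP libraries with Cre. Of 19 tested genes for development and migration of GnRH neurons, 3 were called higher, among them Nrp1 (0.66 ± 0.11), and 6 lower, among them Fgfr1 (-1.19 ± 0.16), Hs6st1 (-0.64 ± 0.11) and the oligodendrocyte marker Sox10 (-1.23 ± 0.10), beside 24.4% and 21.7% of all genes. None of the 12 members of that list with enough counts exceeded r = 0.5 on both measures.

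Most ribosomal protein genes were higher in the IP and varied with Gnrh1. Of 83 tested, 76 were called higher and 0 lower in the IP, beside 24.4% and 21.7% of all genes, with a median log2 difference of 0.66, beside a median log2 ratio of 0.35 in the pair without Cre. Of the 81 with a mean of at least 5 CPM, 77 (95.1%) exceeded r = 0.5 with Gnrh1 on both measures, with a median r of 0.82 in young and 0.92 in adult libraries.

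Genes enriched in the IP were divided by what the IP without Cre held. Of the genes called at least 2-fold higher in the IP with a mean of at least 5 CPM, 121 were under 2-fold in the pair without Cre, and their median r with Gnrh1 was 0.62, of 0.48 in young and 0.82 in adult libraries, with 71 (58.7%) above 0.5 on both measures. The 254 that reached 2-fold in the IP without Cre as well had a median r of 0.039, of -0.40 in young and 0.22 in adult libraries, with 27 (10.6%) above 0.5, near the 9.76% of all genes. This division was made after the values were seen and rests on 1 pair of libraries without Cre, which was young. The enriched genes were chosen in the same IP libraries over which r was taken. These r values therefore describe the 2 sets and do not test the division, and adult libraries had no pair without Cre. Oligodendrocyte markers had a median r of 0.18 in young and -0.53 in adult libraries, astrocyte markers 0.32 and -0.50, and microglia markers 0.24 and -0.16. The differences between the ages were not tested.

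**Figure D5:**
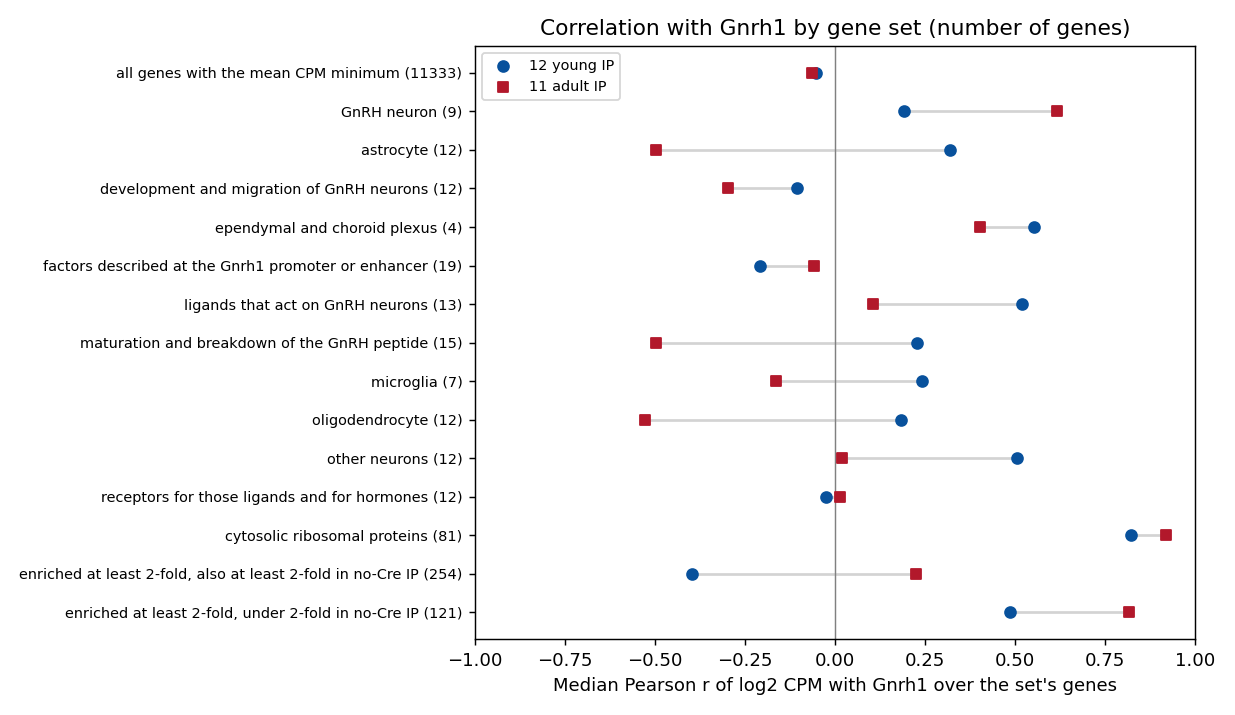
Median Pearson r of log2 CPM with Gnrh1 over the genes of each set with a mean of at least 5 CPM (number in brackets), in the 12 young (circles) and 11 adult IP libraries (squares). Ribosomal protein genes lie at 0.82 and 0.92 and genes enriched in the IP but not in the IP without Cre at 0.48 and 0.82. Markers of oligodendrocytes, astrocytes and microglia, and genes that mature or break down the peptide, are positive in young and negative in adult libraries. These age differences were not tested.

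Both neighbours of Gnrh1 on the chromosome were also called higher in the IP, at far lower levels, beside 24.4% of all genes. Kctd9 had 39.99 CPM in IP and 26.5 CPM in supernatant (log2 difference 0.65 ± 0.12, edgeR adjusted p = 2.43e-05) and r = 0.50 with Gnrh1. Dock5 had 6.91 and 3.20 CPM (1.18 ± 0.29, edgeR adjusted p = 0.000644) and r = 0.22. It ran from 0.19 to 14.6 CPM in adult DHT IP. Its log2 difference was 0.68 under limma-voom (adjusted p = 0.0249) and 0.85 under edgeR with the replicate block (adjusted p = 0.0444). Without Cre, IP and supernatant held 31.3 and 23.9 CPM of Kctd9 and 3.51 and 4.13 CPM of Dock5.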

How the data were processed

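Per the labels' protocols, the SMARTer v4 Ultra Low kit was used on polyadenylated RNA. The deposited table holds the authors' estimated counts per gene for 48 libraries, with no scaling to library size, and 98.49% of its values are whole (no tolerance). Per the submitters' processing notes reads were handled with TopHat2 2.0.13 and Bowtie2 2.2.1 among other tools, including HTSeq 0.6.1, Cuffdiff 2.1.1 and DESeq2 1.14.1, on mm10. The counting tool and its annotation are not given in the sources used here.

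Here, expected counts were rounded and analysed with edgeR 4.0.16 in R 4.3.3 (filterByExpr with minimum count 10 and total 15, TMM, robust quasi-likelihood F test, Benjamini-Hochberg adjustment over all genes, calls at 0.05). Fractions were compared in 1 fit of 46 libraries (16660 genes), and age and treatment in fits of 23 libraries (15890 genes in IP, 16286 in supernatant). The replicate number was not used as a block. Single values were compared by exact two-sided permutation of log2 CPM. Correlations of other genes with Gnrh1 for the ranking and the gene lists used TMM-scaled log2 CPM (prior count 2). The 6 relations of Gnrh1 to measures of the library, Nefl and supernatant Gnrh1 among them, used log2 values without TMM or prior count. The share of genes without a read was taken as it stands. CPM is the count scaled to the library total.

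Alternatives were RLE scaling, DESeq2 1.42.0, limma-voom (limma 3.58.1), no filter, the compared groups alone, a replicate block, the fit without the last 10 sample numbers, and each library left out in turn. edgeR was tested on simulated counts: of 100 genes changed 2-fold and 100 changed 4-fold it recovered 32 and 53 for DHT in adult IP (15890 genes), and 74 and 91 for age in vehicle supernatant (16286 genes).

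The gene, the gene lists and the tests were chosen with earlier results of these data known. Genes were named by a rule: Gnrh1 and its neighbours, the 10 genes most like it and the 5 most opposed, and, from each list, up to 6 members by smallest adjusted p, plus Pcsk1, Pcsk2, Cpe, Pam, Qpct, Prep, Kiss1r and Gnrhr. A few genes taken by this rule are not reported here. No predicted gene was named, and Insr, Thop1, Six3, Kiss1, Cebpb, Slc4a1 and Scube3 were added after their values were seen.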

Additional observations from a re-analysis of the deposited data

Results flagged for a closer look

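In 52 groups of 5 or 6 libraries checked (Gnrh1, Tstd1, Gchfr, Cxcl14 and Acbd7 in CPM, the IP to supernatant ratio of Gnrh1, and the ribosomal and glial sums), 6 had a library far from the others by Dixon's criterion, which chance meets in about 1 of 20 groups. Young vehicle IP replicate 6 held 6817 CPM of Gnrh1, against 3514 CPM in the next library of its group. The same library held 39.0 CPM of Gchfr (next 19.7) and 39.6 CPM of Acbd7 (next 21.5). Acbd7 also stood apart in young DHT IP replicate 6, at 22.5 CPM (next 14.5), and in adult DHT supernatant replicate 5, at 2.32 CPM (next 1.42). Cxcl14 stood apart in young vehicle supernatant replicate 1, at 76.1 CPM (next 66.4). Without young vehicle IP replicate 6, the log2 difference of DHT over vehicle in young IP changed from -0.10 to 0.25, with neither called.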

How the results depend on the processing

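The enrichment of Gnrh1 in the IP, over all conditions and in each, stayed called under every alternative run, and leaving out 1 library moved it between 7.07 and 7.25 on the log2 scale for the mean of conditions. Age differences near the threshold changed side. In vehicle IP the replicate block gave 1.35 (adjusted p = 0.0421), and in DHT IP 0.26 (0.746). For DHT over vehicle in adult IP the block gave -0.93 (0.344) and limma-voom -0.92 (0.595), not called. In vehicle supernatant DESeq2 gave 0.47, limma-voom 0.57, the replicate block 0.56 and the fit without the last 10 sample numbers 0.59, all called, and leaving out 1 library gave 0.39 to 0.59. In DHT supernatant the fit without the last 10 sample numbers gave 0.51, not called (adjusted p = 0.126), and leaving out 1 library gave 0.41 to 0.62. Other changes were of sign in differences that were never called. DHT over vehicle in young IP became 0.22 under limma-voom, 0.16 with the replicate block, 0.18 without the last 10 sample numbers and 0.044 as a plain difference of log2 CPM, with -0.24 to 0.25 when leaving out 1 library. In young supernatant the same range was -0.048 to 0.18. Fraction by treatment in young mice became 0.22 under limma-voom, 0.0024 with the replicate block and 0.023 without the last 10 sample numbers (-0.30 to 0.21 leaving out 1 library). Fraction by age in DHT mice became -0.33 under limma-voom and -0.26 with the block (-0.20 to 0.49). Age by treatment in the supernatant became -0.059 with the block and -0.079 without the last 10 sample numbers (-0.084 to 0.14). The spread of adult DHT against adult vehicle IP ran from -0.037 to 0.50 when leaving out 1 library. The causes of these changes were not tested.

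Of the relations, Gnrh1 against its supernatant lost its call within young (0.56) and adult libraries (0.53), glial markers within young libraries (-0.042) and Nefl within adult ones (-0.56, against -0.42 on deviations from group means). On deviations from group means, supernatant Gnrh1 (0.51) and glial markers (-0.63) kept their calls. The relation to the library total turned to 0.0020 on deviations from group means and 0.16 within adult libraries, and that to genes without a read to -0.067 within young libraries, with none called. Of the 10 genes most like Gnrh1, 3 stayed among the 10 by Spearman rho, 5 on group-centred values alone, 1 within young and 3 within adult libraries, 6 without the last 10 sample numbers, and 8 to 10 when leaving out 1 library. Without adult DHT IP replicate 2, an alternative chosen after seeing the data, 9 stayed and r with the ribosomal sum was 0.75. List alternatives were also chosen after seeing the data. Over all lists, members called lower numbered 51 in the main test, 81 under limma-voom and 85 with the replicate block. A gene in more than 1 list counts in each. Over all 16660 genes tested, calls in either direction also rose, from 7684 to 9999 and 9397 in the same order. Receptors called lower numbered 13 under limma-voom against 5, and endothelial markers 10 against 2. Pcsk1 lost its call with the replicate block (0.34, adjusted p = 0.114). Cpe turned to -0.025 without the last 10 sample numbers and Vwa5b2 to -0.076 under limma-voom and -0.026 with the block, neither called.

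Deviations from group means correlated between IP and supernatant of the same number at -0.083 to 0.43, over 0.1 in 18 of 23. Of the 23 IP libraries, 19 correlated best with their own number among the 5 or 6 supernatants of their group. This is a hint from the data, not from the design, that same-numbered libraries are paired. Since not every pair was over 0.1 and the labels do not state a pairing, the block was kept as an alternative. The main fraction tests thus leave out a possible pairing. With the block, the log2 difference of Gnrh1 over the mean of conditions was 6.97 ± 0.22. The mean of conditions and the interactions that use all groups have no fit of compared groups alone, and relations were not recomputed with each library left out. Counting error was small for Gnrh1 in every library.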
